A study of Mus musculus with 24 samples.

Results

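Blood clots form when tissue factor meets circulating factor VII and starts a cascade that turns factor X into its active form, makes thrombin and ends in a cross-linked fibrin mesh. The cascade is held back by tissue factor pathway inhibitor and by the protein C system on the cell surface, and the mesh is cleared by plasmin, which the plasminogen activators produce. In peritonitis and sepsis, macrophages and the lining of blood vessels express many of these proteins, and fibrin that is not cleared can block small vessels and organs. The 9 genes described here were chosen by name from the count tables, which list 54658 gene symbols each, and all 9 passed the low-count filter in every tissue. F3 (tissue factor), F10 (factor X) and F13a1 (the subunit of factor XIII that cross-links fibrin) belong to clot formation. Tfpi (tissue factor pathway inhibitor), Thbd (thrombomodulin, which turns thrombin into an activator of protein C) and Procr (the endothelial protein C receptor) restrain it. Plau (urokinase), Plat (tissue-type plasminogen activator) and Plaur (the urokinase receptor) belong to fibrin clearance and to proteolysis at the cell surface.

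RNA was measured in male C57BL/6 mice aged 7 to 12 weeks that received intraperitoneal injections of β-nicotinamide mononucleotide (β-NMN, a precursor of NAD+) at 185 mg/kg or of saline as vehicle, the last of them 24 hours before sacrifice. In the TGC model, thioglycollate medium recruits cells into the peritoneal cavity without infection. Its mice were injected daily for 3 days, the first time together with the medium. The lavage cells were plated and exposed to E. coli for 6 hours, giving 6 vehicle and 6 β-NMN libraries. In the CLP model, in which the cecum is ligated and punctured so that gut bacteria cause sepsis, each of 3 vehicle and 3 β-NMN mice gave a heart and a lung. These organs were taken 24 hours after surgery, following a single injection, so dosing and duration differed between the models. No unstimulated cells and no organs of mice without CLP were analysed here, so the values describe treatment within stimulated cells and septic organs. The names in the titles mark each library of a tissue as a separate mouse. The source labels of the CLP libraries mention thioglycollate, whereas their titles and tissue labels say CLP, and the latter were followed.

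Total counts ranged from 31126823 to 112456050 in peritoneal cells, from 27319513 to 68523239 in hearts and from 8915366 to 28356786 in lungs. Both organs of vehicle replicate 2 stood apart from the other libraries, with an SD of the differences in log2 CPM (counts per 1000000) from the mean of the rest of 0.99 in the heart and 1.57 in the lung against at most 0.58 and 0.60 in the others, and its lung was the shallowest library. In that lung summed macrophage markers were 1305 CPM against 3962 CPM or more in the others. Of the 6 endothelial markers, Cldn5 was at 3499 CPM there against at most 815 CPM in the other lungs, whereas the other 5 summed to 731 CPM against 1444 CPM or more. In that heart summed cardiomyocyte markers were the lowest of the 6 at 29578 CPM and summed mesothelial markers the highest at 89.9 CPM. Markers fitted the labelled materials, since macrophage markers summed to 6707 to 13224 CPM in peritoneal cells, cardiomyocyte markers to 29578 CPM or more in hearts and epithelial markers to 54840.5 CPM or more in lungs.

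On GRCm38 (GENCODE M21), F3 lies at chr3:121723537-121735048, F10 at chr8:13037308-13056676 and F13a1 at chr13:36867178-37050244. Tfpi lies at chr2:84432855-84476775, Thbd, which has a single exon, at chr2:148404466-148408188 and Procr at chr2:155751117-155755471, all 3 on chromosome 2. Plau lies at chr14:20836660-20843385, Plat at chr8:22757727-22782844 and Plaur at chr7:24462484-24475968. All 9 are annotated as protein-coding, and F13a1, Tfpi and Thbd lie on the minus strand.

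Of the 9 genes, 6 have a promoter window in the RefSeq table for GRCm38.p6, which runs from 250 bases before to 50 bases after the start of a transcript. Windows are shown for 4 of them, Procr and F10 from among the genes called lower in peritoneal cells, the receptor gene Plaur, which was called higher there and had lower values in both organs, and F3, which starts the cascade and did not pass the test there. Windows are written 5′ to 3′ on the strand of the gene. Capitals mark the letters of AP-1 (TGANTCA), Sp1 (GGGCGG) and the TATA box (TATAAA) on either strand. The cAMP response element (TGACGTCA), kappaB (GGGNNTTCC), Egr (GCGTGGGCG) and ETS (CCGGAAGT) letters were also searched and gave no match in the windows of these genes.
F3, chr3:121723287-121723586, plus strand: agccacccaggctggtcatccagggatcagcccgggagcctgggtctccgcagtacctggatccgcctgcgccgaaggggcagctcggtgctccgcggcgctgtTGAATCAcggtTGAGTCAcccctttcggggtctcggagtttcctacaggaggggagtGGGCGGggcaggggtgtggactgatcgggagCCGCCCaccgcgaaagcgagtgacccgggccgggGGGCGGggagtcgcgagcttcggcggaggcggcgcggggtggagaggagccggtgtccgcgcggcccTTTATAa
F10, chr8:13037058-13037357, plus strand: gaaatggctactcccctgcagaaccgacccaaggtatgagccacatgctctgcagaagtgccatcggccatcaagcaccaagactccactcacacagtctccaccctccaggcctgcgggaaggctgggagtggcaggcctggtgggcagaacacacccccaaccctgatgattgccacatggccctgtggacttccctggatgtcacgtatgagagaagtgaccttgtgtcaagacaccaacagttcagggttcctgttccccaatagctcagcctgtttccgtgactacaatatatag
Procr, chr2:155750967-155751266, plus strand: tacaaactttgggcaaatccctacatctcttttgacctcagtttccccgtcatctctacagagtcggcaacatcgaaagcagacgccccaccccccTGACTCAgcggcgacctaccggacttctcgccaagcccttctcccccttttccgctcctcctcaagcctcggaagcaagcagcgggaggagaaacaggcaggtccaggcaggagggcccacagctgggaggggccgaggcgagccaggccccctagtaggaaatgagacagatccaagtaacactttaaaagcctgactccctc
Plaur, chr7:24462233-24462532, plus strand: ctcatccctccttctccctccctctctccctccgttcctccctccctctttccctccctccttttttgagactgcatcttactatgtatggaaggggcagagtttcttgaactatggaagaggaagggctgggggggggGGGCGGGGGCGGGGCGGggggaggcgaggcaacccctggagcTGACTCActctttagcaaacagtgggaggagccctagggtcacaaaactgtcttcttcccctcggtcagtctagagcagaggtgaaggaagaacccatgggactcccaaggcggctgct
AP-1 letters stood in the windows of 3 of the 6 genes, F3, Procr and Plaur, and in 7.81% of all 32851 windows of the table. The 6 genes have 8 windows, and a gene is counted here if any of its windows matched, whereas the percentages are of single windows. The F3 window held a pair of AP-1 matches, at -146 to -140 and at -135 to -129 from the start, the Procr window a single match at -154 to -148 and the Plaur window a single match at -69 to -63. Sp1 letters occurred in the windows of F3, Plaur and Tfpi and in 35.7% of all windows, and the 3 matches in Plaur lie in a single run of G and C in which neighbours touch or overlap. The F10 window held none of the searched motifs. TATA box letters occurred in F3 and Tfpi and in 13.6% of all windows. These matches describe letters only.

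In peritoneal cells, 7 of the 9 genes passed the test, 3 of them higher and 4 lower with β-NMN, in a comparison in which 51.6% of the 14985 genes tested were called. Procr fell most, by 3.09 on the log2 scale, followed by Plat, Thbd and F10, while Plau, Tfpi and Plaur rose. F3 and F13a1 did not pass. The share of genes called was 23.7% in the higher and 27.9% in the lower direction, so a call by itself was common in these cells. The median log2 fold change was -0.35 over the 9 genes and -0.02 over all genes tested.

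**Figure D1:**
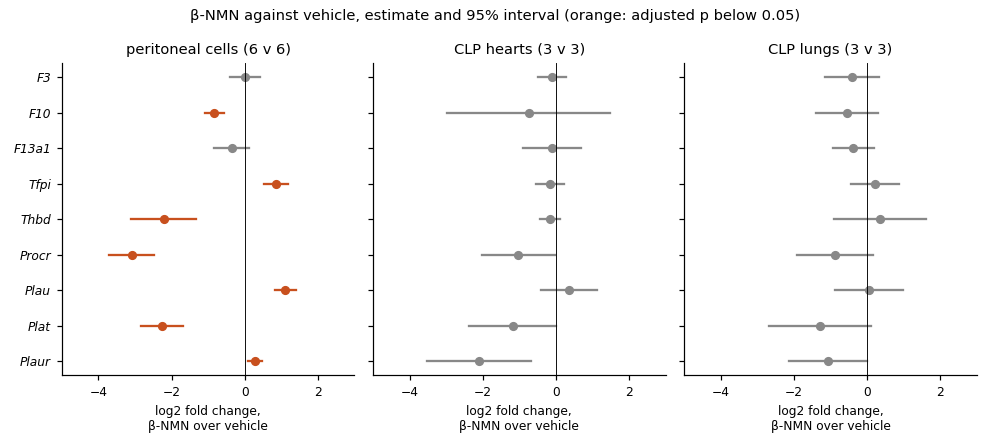
log2 fold change of β-NMN over vehicle (x axis) for the 9 genes (y axis) in each tissue, with edgeR's estimate as a point and its 95% interval as a bar. In peritoneal cells 7 genes are coloured as called, with Procr at -3.09 and Plau at 1.11, while none is called in hearts or lungs.

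F3 had nearly the same level in both groups, at 109 ± 35.9 CPM with vehicle and 109 ± 19.9 CPM with β-NMN (SD, n = 6). It ranged from 56.5 over a median of 107 to 158 CPM with vehicle, and from 83.3 over 108 to 142 CPM with β-NMN. The groups overlapped completely, and the log2 fold change of 0.01 had a 95% interval from -0.42 to 0.43 (edgeR's quasi-likelihood test, adjusted p = 0.982). The sign of the difference turned between deep and shallow libraries, at 0.37 among the 3 vehicle and 2 β-NMN libraries of over 60000000 counts and -0.23 among the 3 and 4 below it. For the other 8 genes the sign was the same in both depth classes.

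F10, whose product joins the extrinsic and intrinsic branches of the cascade, was the most abundant of the 9 genes per length, at 351 ± 58.3 RPKM (CPM per 1000 exon bases) with vehicle. Its level ran from 718 over 980 to 1171 CPM with vehicle and from 490 over 518 to 666 CPM with β-NMN. Every β-NMN library thus lay below every vehicle library. The fall was 1.78-fold (log2 fold change -0.83 ± 0.12 SE, adjusted p = 5.4e-05 by edgeR's quasi-likelihood test). Groups that did not overlap were found for 5 of the 9 genes, Plau above and F10, Thbd, Procr and Plat below, and for 26.6% of all genes tested. The exact two-sided permutation p, unadjusted, was 0.00216 for each of these 5, the smallest that 6 against 6 libraries allow.

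F13a1 had a median of 40.7 CPM (19.5 to 51.9) with vehicle and of 24.5 CPM (23.3 to 44.5) with β-NMN. The groups overlapped because vehicle replicate 6 was the lowest of all and β-NMN replicates 5 and 6 were near the vehicle median. Its log2 fold change of -0.35 ± 0.23 did not pass (adjusted p = 0.208 by edgeR), but it passed without vehicle replicate 6 (-0.49, adjusted p = 0.0436). Annotation places 2 antisense genes within F13a1, of which 1 shares 74 exon bases with it, and the sources do not say whether the counting used strand.

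Among the inhibitors of coagulation, Tfpi moved up while both protein C pathway genes moved down. Tfpi had the lowest level per length with vehicle, at 0.607 ± 0.142 RPKM. It ran from 2.56 over 3.18 to 4.82 CPM with vehicle and from 4.79 over 6.03 to 7.25 CPM with β-NMN. The groups touched only because vehicle replicate 3 reached 4.82 CPM, just above the lowest β-NMN library. The rise was 1.80-fold (log2 fold change 0.85 ± 0.16, adjusted p = 0.00044 by edgeR's quasi-likelihood test).

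Thbd ran from 2.01 over 5.75 to 14.6 CPM with vehicle and from 0.747 over 1.67 to 2.00 CPM with β-NMN. The highest β-NMN library stood just under the lowest vehicle library. Thbd fell 4.63-fold (log2 fold change -2.21 ± 0.42, adjusted p = 0.00047 by edgeR's quasi-likelihood test). The vehicle libraries spread over a wide range, with replicate 3 the highest and replicate 1 the lowest.

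Procr, which presents protein C to the thrombin and thrombomodulin complex, ran from 184 over 304 to 751 CPM with vehicle and from 36.8 over 42.2 to 51.9 CPM with β-NMN. All β-NMN libraries sat in a narrow band far below the lowest vehicle library. The fall was 8.50-fold (log2 fold change -3.09, 95% interval -3.70 to -2.47, adjusted p = 8.9e-07 by edgeR's quasi-likelihood test). Only 0.974% of all genes tested had a log2 fold change as low or lower. The level per length went from 183 ± 103 to 21.5 ± 2.55 RPKM.

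**Figure D2:**
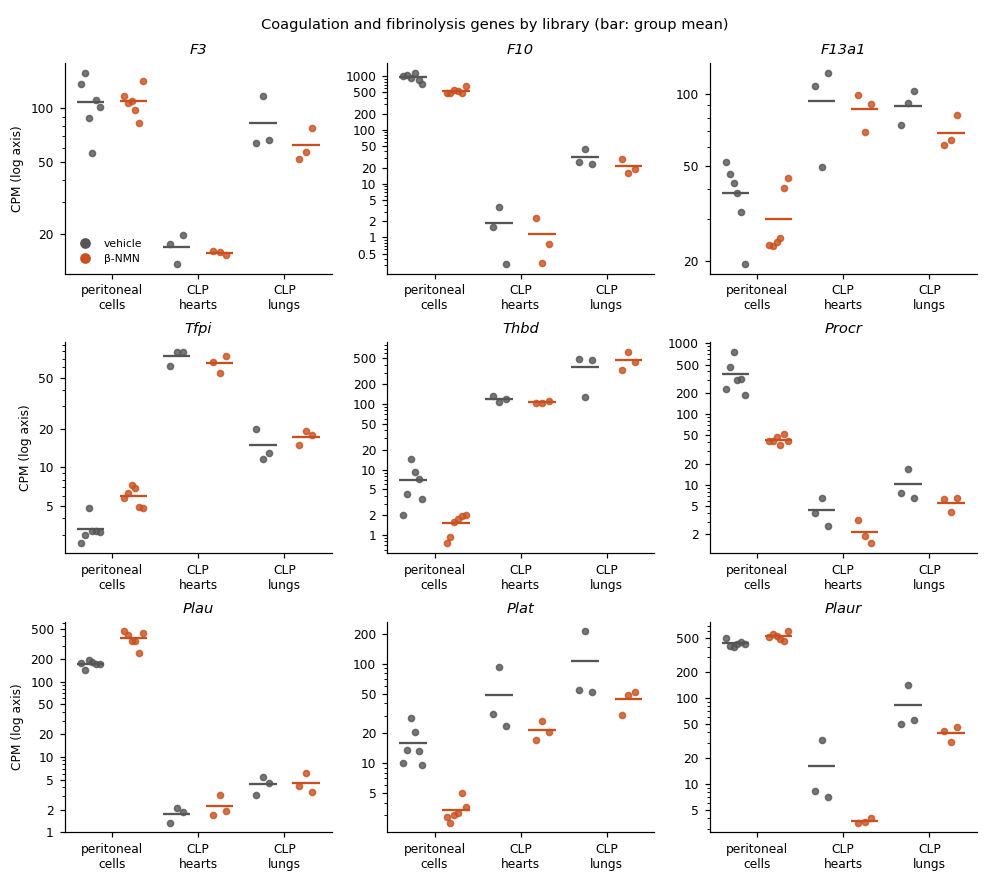
CPM (y axis, log scale) of each gene in every library, with vehicle in grey, β-NMN in orange and a bar at the group mean, for peritoneal cells (6 per group), CLP hearts and CLP lungs (3 per group). F10, Procr and Plau are far higher in peritoneal cells than in organs and Thbd is far lower, and in each organ the highest Plat and Plaur value belongs to the same vehicle mouse.

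The plasminogen activators moved in opposite directions. Plau ran from 142 over 174 to 195 CPM with vehicle and from 241 over 379 to 463 CPM with β-NMN, without overlap. It rose 2.16-fold (log2 fold change 1.11 ± 0.14, adjusted p = 1.4e-05 by edgeR's quasi-likelihood test). Plat ran from 9.57 over 13.4 to 28.7 CPM with vehicle and from 2.50 over 3.05 to 5.00 CPM with β-NMN. It fell 4.80-fold (log2 fold change -2.26 ± 0.27, adjusted p = 7.4e-06 by edgeR's quasi-likelihood test). Again no library of either group reached the range of the other. Plaur, the receptor that holds urokinase at the cell surface, ran from 394 over 427 to 502 CPM with vehicle and from 460 over 524 to 600 CPM with β-NMN. The groups overlapped between 460 and 502 CPM, and the rise was the smallest of the called changes (1.21-fold, log2 fold change 0.28 ± 0.09, adjusted p = 0.0169 by edgeR). With no low-count filter Plaur no longer passed (0.30, adjusted p = 0.112).

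Within a library, the ratio of Plau to Plat per length does not depend on scaling between libraries. It ran from 17.9 over 30.9 to 47.8 with vehicle and from 127 over 318 to 433 with β-NMN. The log2 difference was 3.27. The ratio of F3 to Tfpi ran from 38.3 over 72.3 to 116 with vehicle and from 30.7 over 36.5 to 64.2 with β-NMN. Its log2 difference was -0.80. Both ratios were chosen after their genes' values were seen and are given as a description, with no test.

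The order of levels per length among the vehicle peritoneal libraries was F10, Procr, Plaur, Plau, F3, F13a1, Plat, Thbd and Tfpi. A gap between neighbours, with no shared range, occurred only between Plaur (150 to 192 RPKM) and Plau (59.9 to 82.4 RPKM) and between F3 (22.3 to 62.6 RPKM) and F13a1 (2.89 to 7.71 RPKM). All other neighbours overlapped.

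Markers of other cell types moved with the same comparison. All 4 fibroblast markers were called lower with β-NMN, and their sum ranged from 89.6 to 956 CPM with vehicle and from 19.8 to 85.7 CPM with β-NMN. Vehicle replicate 3, the highest for Thbd, Procr and Plat, was also the highest for this sum. The match was not particular to fibroblast markers. Among vehicle libraries, replicate 3 also had the highest macrophage (13224 CPM), resident peritoneal macrophage (230 CPM) and platelet and megakaryocyte sums (63.6 CPM). It had the lowest neutrophil, B cell, T cell and endothelial sums of that group. Of the 6 neutrophil markers 5 were called lower and 1 higher, with a median log2 fold change of -4.44 over the list. Csf3r made up most of their sum, and the other 5 summed to 93.3 to 300.3 CPM with vehicle and to 8.17 to 33.1 CPM with β-NMN. S100a8, a calcium-binding protein abundant in neutrophils, fell from a mean of 87.4 to 2.78 CPM. All 4 T cell markers and 2 of 4 B cell markers were called lower as well. The T cell markers were low, with sums of 3.03 to 9.64 CPM with vehicle and 0.884 to 2.57 CPM with β-NMN. At similar levels, 2 of 3 tested alveolar and airway epithelium markers were called lower, with sums of 3.52 to 6.66 CPM and 0.892 to 2.53 CPM. The cardiomyocyte marker Tnni3 was called higher, by 1.64, where that list summed to at most 1.74 and 3.32 CPM. Mesothelial markers had 2 of 3 called lower, with sums of 1.84 to 12.3 CPM and 1.01 to 4.00 CPM, the highest in vehicle replicates 3 and 5 at 12.3 CPM each. Of the 6 resident peritoneal macrophage markers 3 were called higher, namely Timd4 by 1.73 on the log2 scale, Prg4 and Selp, which is also in the wider coagulation list. The resident macrophage markers Gata6, a transcription factor that defines these cells, and Icam2 were called lower, at -1.43 and -0.58. Endothelial markers, of which 2 of the 3 tested were called lower, summed to 63.2 to 143 CPM with vehicle and 65.1 to 116 CPM with β-NMN. Of the 2 tested platelet and megakaryocyte markers 1 was called higher, Pf4 by 0.64. That list summed to 29.5 to 63.6 CPM with vehicle and 37.4 to 72.7 CPM with β-NMN. Macrophage markers had 2 of 6 called higher and 1 lower, with sums of 6707 to 13224 and 10120 to 11914 CPM. Their part in the changes of the 9 genes was not tested. In bulk libraries such as these, fewer cells of a type and less RNA per cell cannot be told apart. Without vehicle replicate 3, Thbd, Procr and Plat were still called lower, and the smallest drop of each when any 1 library was left out was -1.81, -2.72 and -1.98 on the log2 scale.

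**Figure D3:**
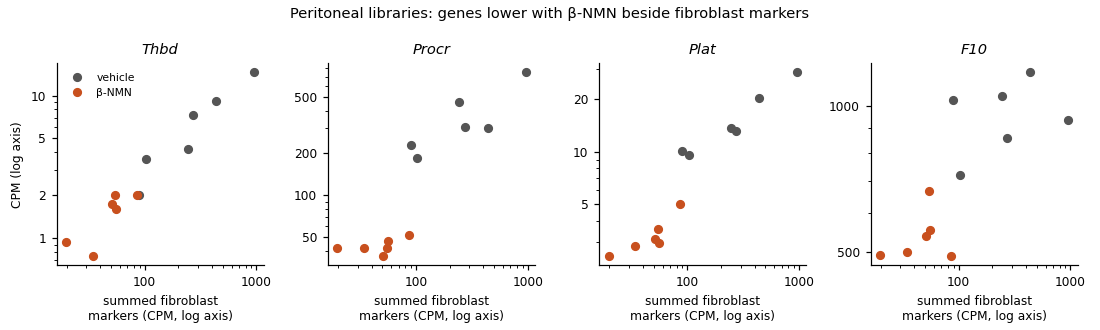
CPM of the 4 genes called lower with β-NMN (y axes, log scale) against the summed CPM of 4 fibroblast markers (x axes, log scale) in the 12 peritoneal libraries, with vehicle in grey and β-NMN in orange. The β-NMN libraries lie at the lower left with marker sums of 19.8 to 85.7 CPM, and the vehicle library with the highest sum, 956 CPM, is also the highest for Thbd, Procr and Plat but not for F10.

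For each called gene, the tested genes with the most similar profile over the 12 peritoneal libraries were picked among 9637 candidates by the root mean square difference of centred log2 CPM. Each gene was centred over both groups, so a shared change with β-NMN enters the likeness. For example, Nrg1 (-3.04) and Cd14 (-2.92) had log2 fold changes near that of Procr (-3.09), and Dcn (-2.05) near that of Thbd (-2.21). The likeness therefore does not show a shared cell type or shared regulation. Thbd was closest to Aebp1 (0.28) and Dcn (0.28), the latter a fibroblast marker used above. Procr was closest to Nrg1 (0.18) and Cd14 (0.23), the gene of a bacterial lipopolysaccharide co-receptor. Plat was closest to Il1r1 (0.28) and Hexim1 (0.29). F10 was closest to Hbp1 (0.09) and Arfgap3 (0.10), and Tfpi to Chid1 (0.12) and Mesd (0.15). Plau was closest to Rhob (0.16) and St3gal2 (0.17), and Plaur to Tmbim4 (0.07) and Inpp5k (0.08).

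Of 44 other genes of coagulation and fibrinolysis, 27 were tested in peritoneal cells, of which 11 were called higher, 9 lower and 7 neither, in a comparison that called 23.7% of all genes tested higher and 27.9% lower. Their median log2 fold change was 0.20. Among coagulation factors, F7, the partner of tissue factor, rose from a median of 179 CPM (157 to 196) to 371 CPM (339 to 423), without overlap (log2 fold change 1.09, adjusted p = 2.4e-07 by edgeR). Vwf, which tethers platelets and carries factor VIII, rose by 1.19 (adjusted p = 6.2e-05 by edgeR), and F5, the cofactor of factor Xa, by 0.92 (adjusted p = 0.0095 by edgeR). Pros1, which encodes the protein C cofactor protein S, rose most of the list's genes above the expression floor for naming, from a median of 22.8 CPM (15.2 to 23.6) to 51.9 CPM (44.4 to 58.1), by 1.25 (adjusted p = 8.0e-07 by edgeR). It thus rose while Procr and Thbd fell. All 5 genes of the vitamin K cycle and of factor secretion had positive log2 fold changes and 4 of them were called, with Vkorc1l1 at 0.95 (adjusted p = 0.00017 by edgeR).

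Among the genes of fibrinolysis, the inhibitor Serpinb2 (plasminogen activator inhibitor 2) ran from 454 over 658 to 976 CPM with vehicle and from 119 over 188 to 253 CPM with β-NMN. It fell without overlap, by 1.79 on the log2 scale (adjusted p = 8.4e-06 by edgeR). Serpine2, a serpin that blocks thrombin and plasminogen activators, fell by 1.35, and Plgrkt, a plasminogen receptor, by 0.70, both called. Of the 5 tested genes of this group reported here, the other 2 were called higher without overlap, S100a10 by 0.84 (adjusted p = 1.7e-05 by edgeR) and Anxa2 by 0.66 (adjusted p = 5.7e-05 by edgeR). Their products form a complex that binds plasminogen at the cell surface. S100a10 and Anxa2 were chosen for mention after their values were seen. All 3 tested protease-activated receptor genes, whose products respond to thrombin and other proteases, were called lower, each at a median under 2 CPM in both groups. They were chosen for mention after their values were seen.

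**Figure D4:**
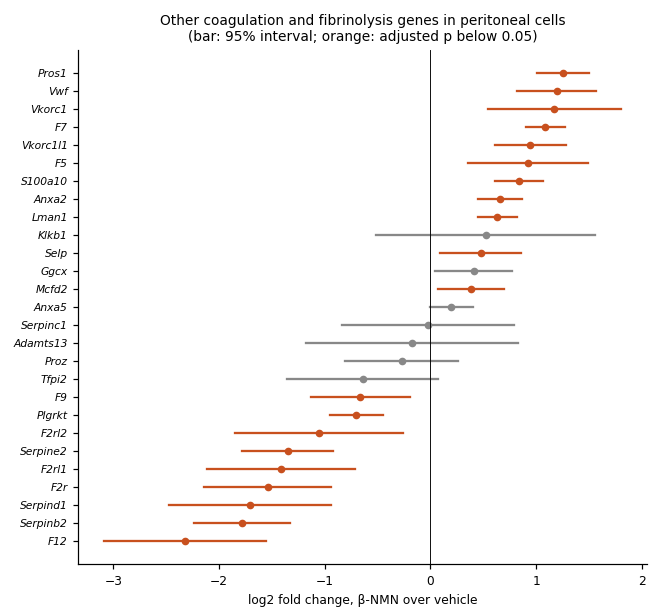
log2 fold change of β-NMN over vehicle in peritoneal cells (x axis) for the 27 tested genes of the wider coagulation and fibrinolysis list (y axis), with edgeR's 95% interval as a bar and called genes in orange. The 11 genes called higher include Pros1 at 1.25 and F7 at 1.09, and the 9 called lower include Serpinb2 at -1.79.

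In CLP hearts, none of the 9 genes passed the adjusted threshold in edgeR's quasi-likelihood test, nor did any of the 16245 genes tested (0%; smallest adjusted p 0.115). At an unadjusted p under 0.05, Plaur and Procr were lower, against 7.63% of all genes in the lower direction. DESeq2 called 1 of the 9, Plaur (adjusted p = 0.017), and 43 genes higher and 240 lower in all. The estimate lay below 0 for 8 of the 9 genes, against 50.7% of all genes tested, with a median of -0.17 against -0.01 over all genes, and the exception was Plau at 0.36. Of 14 cell type marker lists, the summed levels of 6 did not overlap between the groups of hearts. Cardiomyocyte markers (29578 to 47991 CPM with vehicle, 50534 to 55331 CPM with β-NMN) and endothelial markers (859 to 901 and 919 to 1083 CPM) were higher with β-NMN. Neutrophil (18.5 to 33.2 and 12.4 to 13.8 CPM), platelet and megakaryocyte (17.5 to 30.9 and 11.3 to 16.4 CPM), mesothelial (9.67 to 89.9 and 5.51 to 9.48 CPM) and resident peritoneal macrophage markers (268 to 1071 and 229 to 264 CPM) were lower. These are sums, and single markers did not all follow them. Of the resident macrophage markers 3 had estimates above 0 and 3 below. Prg4, at means of 505 CPM with vehicle and 126 CPM with β-NMN, made up the largest part of that sum. Of the endothelial markers 4 lay above 0 and 2 below, and of the platelet and megakaryocyte markers 1 above and 4 below. None of the markers was called by edgeR, and their part in the estimates was not tested.

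Plaur in hearts was 8.30, 32.5 and 6.93 CPM in vehicle replicates 1 to 3 and 3.50, 3.53 and 4.03 CPM with β-NMN. All β-NMN hearts lay below all vehicle hearts, as for 11.5% of the genes tested, and vehicle replicate 2 stood far above the rest. The log2 fold change was -2.11 (95% interval -3.53 to -0.69, adjusted p = 0.435 by edgeR), and -1.05 without vehicle replicate 2. Procr was 3.96, 6.58 and 2.62 CPM with vehicle and 3.17, 1.88 and 1.49 CPM with β-NMN. The groups overlapped by the lowest vehicle and the highest β-NMN heart. Its log2 fold change was -1.03 (95% interval -2.03 to -0.02, adjusted p = 0.435 by edgeR) and -0.63 without vehicle replicate 2.

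Plat in hearts was 30.8, 91.7 and 23.8 CPM with vehicle and 17.1, 26.6 and 20.6 CPM with β-NMN. Apart from vehicle replicate 2 the groups had similar values. The log2 fold change of -1.18 (95% interval -2.38 to 0.01, adjusted p = 0.435 by edgeR) became -0.35 without that library. F10 was low, at 1.58, 3.63 and 0.320 CPM with vehicle and 2.35, 0.333 and 0.760 CPM with β-NMN, and its estimate turned from -0.74 to 0.15 without vehicle replicate 2. Thbd, Tfpi, F3, F13a1 and Plau overlapped between the groups, with log2 fold changes from -0.17 to 0.36. For Thbd the levels were tight, at 132, 109 and 119 CPM against 104, 106 and 112 CPM, with a 95% interval of -0.44 to 0.12 for the log2 fold change.

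In CLP lungs, none of the 9 genes and none of the 17008 genes tested passed (0%; smallest adjusted p 0.969 by edgeR's quasi-likelihood test). DESeq2 called 1 gene higher and 8 lower and limma-voom 7 lower, none of them among the 9. At an unadjusted p under 0.05 Plaur was lower, against 1.28% of all genes in the lower direction. The estimate lay below 0 for 6 of the 9 genes, against 49.9% of all genes tested. Of the 14 marker lists the sums of 3 did not overlap between the groups of lungs. Summed macrophage markers were higher with β-NMN (1305 to 4293 CPM with vehicle, 4970 to 5429 CPM with β-NMN). Summed cardiomyocyte (243 to 406 and 70.2 to 237 CPM) and hepatocyte markers were lower. Lyz2 made up most of the macrophage sum, at means of 2888 and 4885 CPM. Of the 6 macrophage markers 3 had estimates above 0 and 3 below. Of the tested cardiomyocyte markers 1 lay above 0 and 3 below. None of these markers was called by edgeR, and their part was not tested.

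Plaur in lungs was 49.7, 144 and 55.5 CPM with vehicle and 41.2, 31.1 and 45.8 CPM with β-NMN. Plat was 54.5, 211 and 52.4 CPM with vehicle and 30.6, 47.9 and 52.3 CPM with β-NMN. Procr was 7.69, 16.9 and 6.59 CPM with vehicle and 6.21, 4.18 and 6.42 CPM with β-NMN. In all 3 the β-NMN lungs lay below the vehicle lungs, as for 3.75% of all genes tested, although by less than 1 CPM for Plat and Procr. The log2 fold changes were -1.07, -1.28 and -0.88, each with adjusted p = 0.969 by edgeR, and became -0.42, -0.29 and -0.35 without vehicle replicate 2. That library held the highest value of all 6 lungs for each of them.

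Thbd in lungs was 480, 129 and 478 CPM with vehicle and 328, 623 and 442 CPM with β-NMN. The vehicle group was low only in replicate 2, and the log2 fold change of 0.36 became -0.05 without it. F3 was 64.6, 117 and 66.4 CPM with vehicle and 52.4, 57.1 and 77.3 CPM with β-NMN, overlapping between the groups (-0.41, 95% interval -1.16 to 0.34). Its highest value was in vehicle replicate 2, and the log2 fold change of F3 was -0.07 without it. F10 was 25.0, 45.1 and 23.4 CPM with vehicle and 29.2, 16.01 and 18.7 CPM with β-NMN, again with its highest value in vehicle replicate 2. F13a1, Tfpi and Plau overlapped as well, with log2 fold changes of -0.37, 0.22 and 0.06.

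Vehicle replicate 2 was the highest or the lowest of the 6 libraries for 6 of the 9 genes in hearts and for 7 of 9 in lungs, close to the 73% and 80.2% of all genes tested for which it was. Without it edgeR called 0 of the 9 genes in either organ, and 4 in hearts (10.3% of all genes tested) and 0 in lungs (4.31%) had an unadjusted p under 0.05, the 4 being F3, F13a1, Thbd and Plaur, each lower and named after its value was seen. With it the median log2 fold change over the 9 genes was -0.17 in hearts and -0.41 in lungs, and without it -0.25 and -0.19, and 7 of the 9 estimates were below 0 in each organ.

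**Figure D5:**
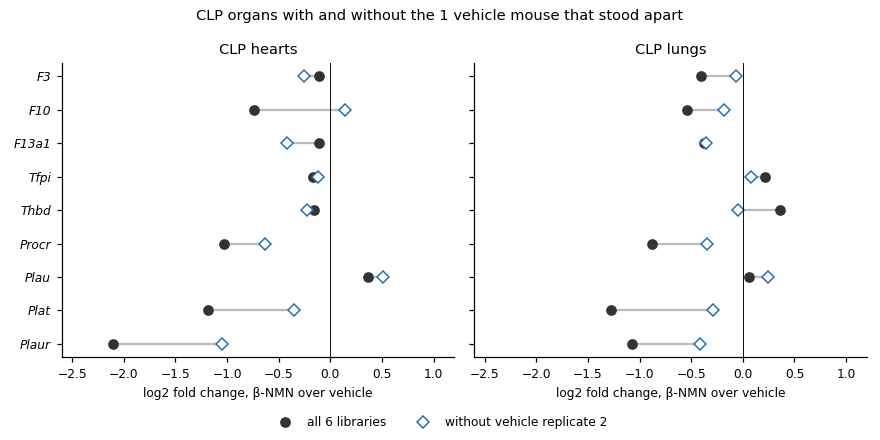
log2 fold change of β-NMN over vehicle (x axis) of the 9 genes (y axis) in CLP hearts and lungs with all 6 libraries (filled points) and without vehicle replicate 2 (open diamonds). Plaur moves from -2.11 to -1.05 in hearts and Plat from -1.28 to -0.29 in lungs, while Tfpi changes little in hearts.

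Whether the response differed between organs was tested as an interaction over the 12 CLP libraries. None of the 9 genes passed, and none had an unadjusted p under 0.05 in the fit without a mouse block, against 0% of the 18318 genes tested called by edgeR's quasi-likelihood test, 4.35% at an unadjusted p under 0.05, and 8 higher and 6 lower genes by DESeq2. Plaur had the largest difference, at 1.07 (95% interval -0.57 to 2.72), which was -0.01 without the heart of vehicle replicate 2 but 0.61 ± 0.26 (SE) without both organs of that mouse (adjusted p = 0.985 by edgeR). With the mouse as a block it was 0.84 ± 0.33 (SE, adjusted p = 0.948 by edgeR). In each of these latter fits Plaur was the 1 gene of the 9 with an unadjusted p under 0.05, against 5.01% and 2.72% of all genes tested. For Plat it was -0.04 (95% interval -1.78 to 1.71). These intervals are too wide to show that the organs respond alike.

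The ratio of Plau to Plat in hearts was 0.0606 to 0.206 with vehicle and 0.244 to 0.313 with β-NMN, and in lungs 0.0685 to 0.229 and 0.17 to 0.352. The log2 differences were 1.27 and 1.03, and 0.82 and 0.55 without vehicle replicate 2. The ratio of F3 to Tfpi in hearts was 0.375 to 0.618 with vehicle and 0.444 to 0.629 with β-NMN, a log2 difference of 0.08, opposite in sign to that in peritoneal cells. In lungs it was 7.05 to 21.7 with vehicle and 6.45 to 9.30 with β-NMN, a log2 difference of -0.63, and the groups overlapped in both organs. Without vehicle replicate 2 these differences were -0.13 and -0.19.

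Among the 44 other genes of the list, 34 were tested in hearts and 35 in lungs, and edgeR called none. At an unadjusted p under 0.05, 1 was higher and 6 lower in hearts (3.68% and 7.63% of all genes tested), and 4 were lower in lungs (1.28%), and DESeq2 called 2 lower in hearts. In hearts the smallest p belonged to Selp, an adhesion receptor of platelets and endothelium (-3.58, adjusted p = 0.435 by edgeR), which had a median of 21.1 CPM (11.5 to 84.7) with vehicle and 3.05 CPM (2.61 to 4.25) with β-NMN. Serpine2 (-0.86) and Vwf (-0.85) followed, each below vehicle in all 3 hearts. The summed platelet and megakaryocyte markers were lower and the summed endothelial markers higher in these hearts, as given above. Against those sums went Gp1ba (0.32) of the platelet list and Pecam1 (-0.25) and Cldn5 (-0.21) of the endothelial list. No marker was called, and their part in these estimates was not tested. Without vehicle replicate 2 the log2 fold changes of Selp, Serpine2 and Vwf were -2.32, -0.63 and -0.62. In lungs the smallest p belonged to Kng1 (-2.36), Fgg (-1.54) and Fga (-1.92), each with adjusted p = 0.969 by edgeR. Kng1 encodes a kininogen, and Fgg and Fga encode chains of fibrinogen, all made mainly by the liver. Hepatocyte markers in the same lungs summed to 7.66 to 15.4 CPM with vehicle and 1.71 to 5.58 CPM with β-NMN, without overlap, and their part in these estimates was not tested. The log2 fold changes of the hepatocyte markers Alb and Apoa1 were -1.61 and -1.30. Vwf had an estimate of 0.27 in lungs, which turned to -0.08 without vehicle replicate 2, at 286 CPM the lowest of the 6 lungs. Serpinb2 was not tested in either organ, and reached 8.20 CPM in the heart of vehicle replicate 2 against at most 0.145 CPM in the other hearts.

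Lungs and hearts of the same vehicle mice differed in 4 of the 9 genes, in a comparison in which 46.9% of the 18318 genes tested were called, 24.4% higher and 22.5% lower. F10 was 13.5-fold higher in lungs (log2 difference 3.76 ± 0.59, adjusted p = 0.0019 by edgeR's quasi-likelihood test with the mouse as a block). Over the fits with libraries left out, this log2 difference ran from 3.07 to 4.02. Plaur was 3.70-fold higher (1.89, adjusted p = 0.00071 by edgeR) and F3 2.94-fold higher (1.55, adjusted p = 0.0042 by edgeR). Tfpi was 8.03-fold lower in lungs (-3.00 ± 0.29, adjusted p = 0.00021 by edgeR). F3 was thus higher and Tfpi lower in lungs, and their ratio per length was 7.05 to 21.7 in vehicle lungs against 0.375 to 0.618 in vehicle hearts. For F13a1 (-0.66), Thbd (0.71), Procr (0.53), Plau (0.62) and Plat (0.37) the difference did not pass. Without vehicle replicate 2, F13a1 (-1.16, adjusted p = 0.00033 by edgeR) and Thbd (1.18, adjusted p = 0.00078 by edgeR) passed as well.

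Per length, Thbd was the highest of the 9 genes in both organs, at 32.1 ± 3.09 RPKM in vehicle hearts and 97.3 ± 54.3 RPKM in vehicle lungs, and among the lowest in peritoneal cells at 1.83 ± 1.24 RPKM. In hearts it was followed by F13a1, Tfpi, Plat, F3, Plaur, Procr, Plau and F10, with ranges that did not overlap only between Thbd and F13a1 and between Procr and Plau. In lungs the order was Thbd, F3, Plaur, Plat, F13a1, F10, Procr, Tfpi and Plau, and only F10 and Procr did not overlap. F10, first in peritoneal cells, was last in hearts at 0.675 ± 0.612 RPKM. Peritoneal cells and organs stand in separate tables that were scaled separately, and their levels are set side by side without a test.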

How the data were processed

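RNA was sequenced as poly(A) libraries from 24 samples, 12 of peritoneal cells, 6 of hearts and 6 of lungs. The authors aligned reads to mm10 with STAR (2.7.3a per the labels), counted them with featureCounts 2.0.0 and deposited raw gene counts, with no normalization, in 1 table for peritoneal cells and 1 for the CLP organs. They give raw reads per symbol, with the annotation and strand setting not given in the sources used here. The methods and the notes on sequencing differ on whether reads were single or paired. Both β-NMN hearts 2 and 3 carry the number 3 in their titles, and the heart of the mouse that gave lung replicate 2 was taken as replicate 2.

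Genes were filtered by filterByExpr and scaled by TMM, and tissues were fitted separately in R 4.3.3 with edgeR 4.0.16 (quasi-likelihood F test, Benjamini-Hochberg adjustment over all genes tested, called at an adjusted p below 0.05). CPM use TMM-scaled library sizes of the filtered genes, and RPKM divide CPM by the union exon length of GENCODE M21 on GRCm38, which gave 1 gene for 54000 of the 54658 symbols. log2 CPM used a prior count of 2. SE and 95% intervals come from the F statistic. The organ difference used the mouse as a block, because names in the titles tie heart and lung to the same animal, and deviations of the 2 organs of a mouse correlated at 0.06 to 0.17, each mouse's heart best with its own lung. Alternatives were DESeq2 1.42.0, limma-voom with quality weights (limma 3.58.1), the newer quasi-likelihood fit, DESeq2 size factors, no low-count filter, both organs in 1 fit, a replicate block and leaving out each library. A depth class term in peritoneal cells and leaving out both libraries of vehicle replicate 2 from the interaction were added after the data were seen. The fit was tested on simulated counts with planted changes of 2 on the log2 scale. It recovered 90.5% of them in peritoneal cells, 69% in hearts, 51% in the organ difference, 14% in the interaction and 0% in lungs. Smaller changes, such as most estimates of the 9 genes in organs, were not simulated. The lack of calls in hearts, lungs and the interaction therefore does not show that levels were alike.

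All 9 genes were described in every tissue. Of the 44 other pathway genes (1 more gene of the list is not reported here), those named were Serpinb2 and Vwf, up to 5 called in each direction by size (mean log2 CPM 1 or more), or, where none was called, the 3 with the smallest p. The members and lists were chosen with earlier results of these data known. Replicates were checked for a library deposited more than once, and none was found.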

Additional observations from a re-analysis of the deposited data

Results flagged for a closer look

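In 18 groups of 6 peritoneal libraries checked, 1 for each of the 9 genes and each treatment, a single library stood far from the others in 2. For Tfpi with vehicle, replicate 3 at 4.82 CPM was separated from the next library by 0.638 of the group's whole range of log2 CPM. For Plau with vehicle, replicate 2 at 142 CPM was separated by 0.626 of the range. Chance flags about 1 in 20 groups.

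Tfpi rose with β-NMN by 0.82 to 1.02 and Plau by 1.06 to 1.24 on the log2 scale when any 1 library was left out, and both were called in each of those fits.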

How the results depend on the processing

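In peritoneal cells the 3 higher and 4 lower calls among the 9 genes were made again with DESeq2, DESeq2 size factors, the newer fit, the depth class and every library left out, except that limma-voom added F13a1 (-0.51, adjusted p = 0.0356), leaving out vehicle replicate 6 added it as well (-0.49, adjusted p = 0.0436), and the fit with no low-count filter lost Plaur (0.30, adjusted p = 0.112). The sign of F3 turned with limma-voom (-0.17), with the depth class (-0.011) and between -0.094 and 0.14 over the libraries left out. In hearts DESeq2 called 1 of the 9 genes lower where edgeR called 0. Over all genes DESeq2 called 43 higher and 240 lower there, limma-voom 3 lower, the fit with no low-count filter 3 lower and the fit without vehicle replicate 2 5 lower, where edgeR called 0. In lungs DESeq2 called 1 higher and 8 lower and limma-voom 7 lower over all genes, and the signs of F3 (0.064) and Thbd (-0.041) turned with limma-voom. For the organ difference, leaving out a vehicle mouse gave 1 to 2 of the 9 genes lower, DESeq2 added Plau (0.64, adjusted p = 0.0387) and called 13 other pathway genes higher in place of 8 and 5 lower in place of 3, and leaving out vehicle replicate 1 left 2934 genes higher in place of 4475. For the interaction, DESeq2 called 8 genes higher and 6 lower and the fit with no filter 1 each, and with no filter Plat turned to 0.050.

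Over the libraries left out, signs also turned in hearts for F3 (-0.25 to 0.013), F10 (-1.75 to 0.15) and F13a1 (-0.42 to 0.14), in lungs for Thbd (-0.047 to 0.62) and Plau (-0.22 to 0.24), and in the interaction for F3 (-0.46 to 0.15), F10 (-0.65 to 1.24), F13a1 (-0.48 to 0.044), Procr (-0.24 to 0.64), Plau (-0.57 to 0.053), Plaur (-0.012 to 1.65) and Plat (-0.91 to 0.85), none of them called in the fit with all libraries. The ratio of Plau to Plat in peritoneal cells stayed between 3.11 and 3.51 on the log2 scale, and that of F3 to Tfpi in hearts turned (-0.13 to 0.23). Causes were not tested.

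Same-numbered vehicle and β-NMN libraries did not share deviations in peritoneal cells (correlations from -0.17 to 0.13) or lungs (-0.52 to 0.30). In hearts the correlations were 0.07 to 0.24, each heart best with its own number. A replicate block kept 3 higher and 4 lower calls among the 9 genes in peritoneal cells and 0 in hearts and lungs, and the mouse as a block in the interaction gave 0. Without the mouse block the organ difference still had 3 genes higher and 1 lower.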
